A study of Mus musculus with 15 samples.

Results

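Choline use and phosphatidylcholine supply were followed through 10 genes: Pemt, Chka, Chkb, Pcyt1a, Pcyt2, Chpt1, Lpcat3, Mfsd2a, Chdh and Dmgdh. They were taken by gene symbol, and all 10 of the 23420 genes in the count files were found and had enough counts to be tested, among 12193 genes tested in all. Liver RNA of male C57Bl/6J mice, an inbred strain, was measured on 3 diets with 5 libraries each. BD is the base diet, with 4% fat; HFD, the high-fat diet, holds 31% fat; MCD holds the same 31% fat but is deficient in methionine, choline and folate. All 15 libraries came from pulverized left liver lobe and from polyA RNA, taken 24 h after a dose of the vehicle alone, which was 5% Alkmauls El-620 in saline. The BD and HFD groups therefore carried the vehicle too, and no untreated mouse entered. The MCD diet removes methionine and folate along with choline, so a difference from HFD cannot be assigned to choline alone. The labels give neither the age of the mice nor the weeks on the diet, and they tie no library to an animal. All p-values therefore refer to the spread between libraries, which may be technical in part.

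Phosphatidylcholine is the main phospholipid of cell membranes, of bile and of the lipoprotein particles that carry fat out of the liver. The liver makes it along a pair of routes. In the CDP-choline route, choline is phosphorylated by choline kinase, coupled to CTP by a cytidyltransferase and joined to diacylglycerol by a cholinephosphotransferase. In the other route, which is a specialty of the liver, Pemt methylates phosphatidylethanolamine with methyl groups from S-adenosylmethionine. Choline that is not used for lipid is oxidised in mitochondria to betaine and then to dimethylglycine, sarcosine and glycine, and this path hands methyl groups back to methionine. Diets that lack methionine and choline are a classic way to produce fatty and inflamed liver in mice.

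Of the 10 genes, 3 changed on at least 1 diet. Mfsd2a, a carrier of lysophosphatidylcholine, was about 15-fold higher on both diets with 31% fat than on BD. Chka, the choline kinase gene with most of the counted choline kinase mRNA on BD, was lower on both by a factor of about 0.4. Dmgdh, the mitochondrial dimethylglycine dehydrogenase, was lower on MCD than on BD, and lower than on HFD by a call near the threshold. For Pemt, Chkb, Pcyt1a, Pcyt2, Chpt1, Lpcat3 and Chdh no comparison passed the test.

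The starts of the 3 genes that changed are shown because these are the genes whose levels the results turn on. Each window holds 300 bases, from 250 before to 50 after the annotated start, read 5′ to 3′ on the gene's own strand from RefSeq's annotation of GRCm38.p6. Capitals mark matches on either strand to the short motifs searched: the nuclear receptor hexamer AGGTCA in Mfsd2a, the GC box GGGCGG, which the other strand shows as CCGCCC, the CCAAT box, which it shows as ATTGG, and TGACG, the first part of the cAMP response element TGACGTCA. The Mfsd2a window is chr4:122961139-122961438 on the minus strand, the Chka window chr19:3851523-3851822 on the plus strand, and the Dmgdh window chr13:93674186-93674485 on the plus strand.
Mfsd2a: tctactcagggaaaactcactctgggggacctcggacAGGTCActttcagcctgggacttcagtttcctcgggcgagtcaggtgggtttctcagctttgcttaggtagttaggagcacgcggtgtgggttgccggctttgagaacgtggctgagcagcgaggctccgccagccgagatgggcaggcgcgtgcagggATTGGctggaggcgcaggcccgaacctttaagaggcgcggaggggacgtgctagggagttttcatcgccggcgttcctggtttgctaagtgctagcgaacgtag
Chka: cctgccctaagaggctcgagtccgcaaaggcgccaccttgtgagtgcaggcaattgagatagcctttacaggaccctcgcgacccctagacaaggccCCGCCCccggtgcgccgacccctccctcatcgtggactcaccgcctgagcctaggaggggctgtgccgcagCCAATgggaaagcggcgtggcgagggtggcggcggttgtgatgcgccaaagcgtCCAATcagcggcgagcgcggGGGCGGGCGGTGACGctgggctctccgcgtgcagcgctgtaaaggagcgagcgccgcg
Dmgdh: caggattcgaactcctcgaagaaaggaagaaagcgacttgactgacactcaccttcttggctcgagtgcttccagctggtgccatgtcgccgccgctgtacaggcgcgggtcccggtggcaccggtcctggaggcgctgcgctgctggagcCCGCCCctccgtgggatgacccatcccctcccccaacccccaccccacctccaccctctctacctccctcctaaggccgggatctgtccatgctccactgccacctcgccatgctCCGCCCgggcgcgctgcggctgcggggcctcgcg

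None of the motifs searched was in the windows of all 3 genes. The Mfsd2a window had its AGGTCA at position -213 from the start and its CCAAT box at -54, with no GC box. The Chka window had GC boxes at -153, -8 and -4, the last 2 of which overlap each other and run into the TGACG at 3 past the start, and CCAAT boxes at -82 and -28. The Dmgdh window had GC boxes at -99 and at 17 past the start. Over all 32851 windows of this length in the table, AGGTCA stood in 16.3%, GGGCGG in 35.7%, CCAAT in 37.4% and TGACG in 20.8%. The table matched 9 of the 10 genes by symbol, all but Pcyt2, with 14 windows. Among these 9 genes AGGTCA was found for 2 (Mfsd2a and Pcyt1a), TGACG for 3 (Chka, Chkb and Pcyt1a), the GC box for 7 and the CCAAT box for 6. Counted by window, like the shares over all windows, AGGTCA was in 2 of the 14, TGACG in 3, the GC box in 8 and the CCAAT box in 6. The E-box CACGTG, to which the CLOCK and BMAL1 pair binds, was in none of the 14 windows and in 7.15% of all windows, and TGACGTCA was in none and in 1.79% of all. The D-box TTATGTAA, searched after the values of the genes were known, was in none and in 0.938% of all. AGGTCA repeats with 1 base between them (DR1) or 4 (DR4) were in none and in 0.0396% and 0.0152% of all windows. These matches describe letters in a short window and say nothing about binding.

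Libraries held 3704642 to 23131089 gene counts (median 10312311), and 3 counts corresponded to 0.130 to 0.810 CPM, the count scaled to a common library size. The deepest of the members in counts was Dmgdh with 2941 to 16838 counts per library, and the thinnest were Chkb with 15 to 152 and Mfsd2a on BD, which had as few as 10. On the first principal component of all tested genes (37.1% of the variance), HFD replicate 2 lay at 28.4, inside the MCD range of 15.6 to 39.4 and outside the -12.7 to -0.42 of the other HFD libraries. MCD replicate 3 lay at 15.6, apart from the 30.2 to 39.4 of the other MCD libraries, so results are also given without both. Sample numbers in the titles run in 1 series for HFD and MCD and in a later one for BD, so a batch or day that goes with these numbers and the low-fat diet cannot be told apart. Hepatocyte markers were high in every library (Alb 85434 to 134438 CPM), and the adipocyte genes Adipoq, Plin1 and Lep were at 0 in 13, 14 and 15 of the 15 libraries, while Cidec, the other adipocyte marker listed, which fatty liver also makes, was at 1.28 to 68.2 CPM.

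Of the 12193 genes tested, 6.92% were called between HFD and BD (3.65% higher and 3.27% lower on HFD), 21.4% between MCD and BD (12.8% higher and 8.64% lower on MCD), and 3.15% between MCD and HFD (2.22% higher and 0.927% lower on MCD). Calls required an adjusted p under 0.05 in edgeR's quasi-likelihood test. Against that background 2 of the 10 genes were called for HFD against BD (1 higher, 1 lower), 3 for MCD against BD (1 higher, 2 lower) and 1 for MCD against HFD (lower). With 10 members these counts are too small to set the group apart from the other genes. The median log2 fold change of the 10 genes was -0.06, 0.00 and -0.02 in the 3 comparisons, and that of all genes tested was -0.01, -0.03 and -0.00. The comparisons of HFD and of MCD with BD share the same 5 BD libraries, so their values are set side by side and are not independent.

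**Figure D1:**
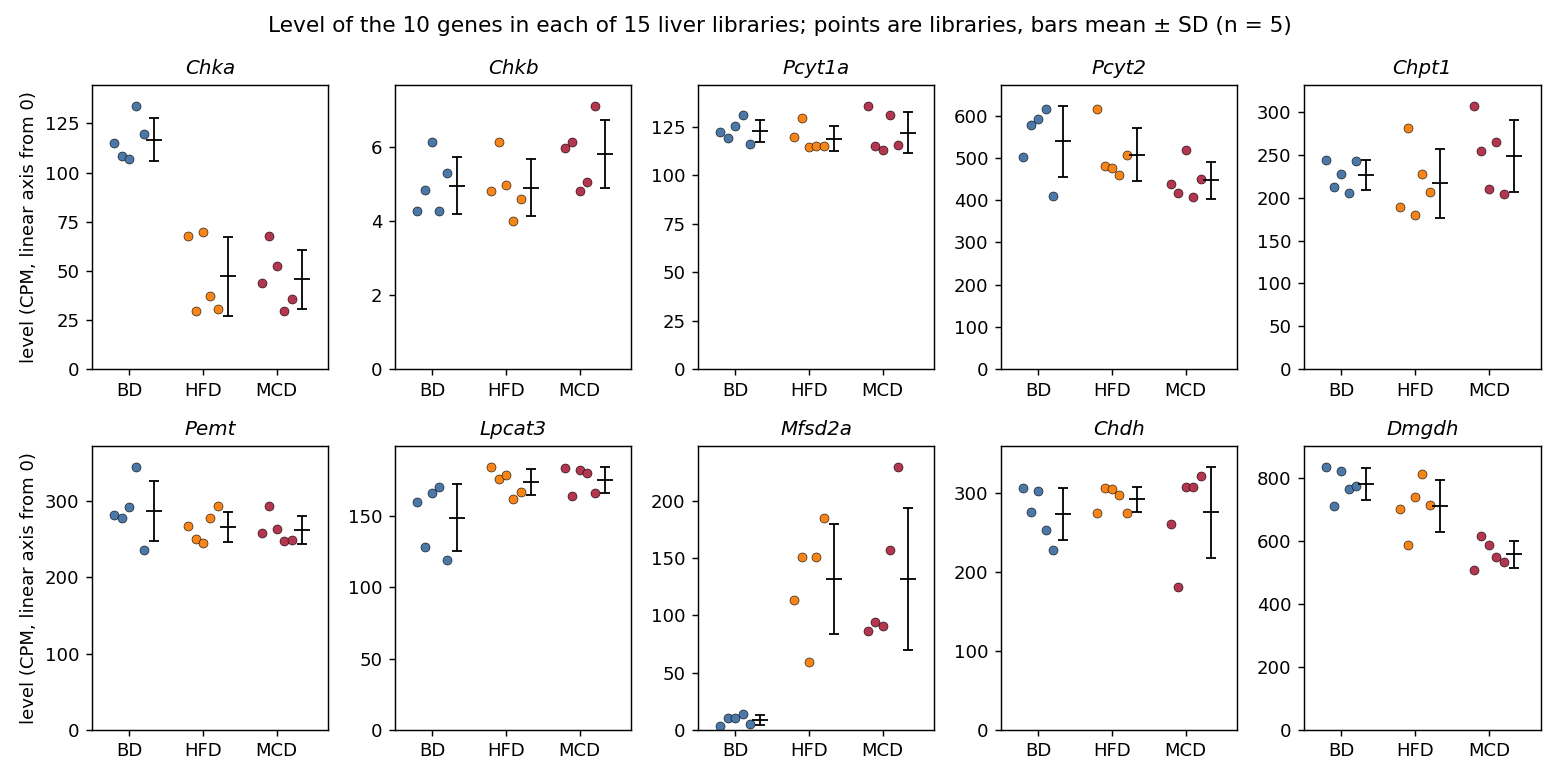
Level of each of the 10 genes in CPM (vertical axis, linear from 0) by diet, with 1 point per library and the mean ± SD of 5 libraries as bars. Mfsd2a on HFD and MCD lies at 59.006 CPM or more against at most 14.1 on BD, Chka lies at 69.9 or less against at least 107 on BD, and Dmgdh on MCD lies at 615 or less against at least 710.1 on BD.

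Uptake from outside the cell comes first. Mfsd2a (chr4:122946850-122961188, minus strand, GRCm38) is a membrane protein that carries lysophosphatidylcholine with long-chain fatty acids, best known from the blood-brain barrier. On BD its level was 2.84, 10.01, 10.3, 14.1 and 5.10 CPM in replicates 1 to 5. On HFD it was 114, 150.8, 59.006, 150.8 and 185 CPM. On MCD it was 86.4, 94.0, 90.5, 157 and 230.1 CPM. Every HFD and every MCD library was above every BD library, and the HFD and MCD libraries overlapped. Means were 8.47 ± 4.48 CPM on BD, 132 ± 48.0 on HFD and 132 ± 62.3 on MCD (SD, n = 5). The log2 fold change against BD was 3.94 ± 0.44 (SE) for HFD (15.3-fold, adjusted p = 1.04e-04) and 3.93 ± 0.44 for MCD (15.2-fold, adjusted p = 6.22e-05). Between MCD and HFD it was -0.01, with a 95% interval of -0.81 to 0.78 (adjusted p = 0.992), so a difference of up to about 0.8 in either direction is not shut out by these libraries. Without HFD replicate 2 and MCD replicate 3 the log2 fold changes against BD were 3.89 and 4.04 (adjusted p = 4.83e-04 and 1.11e-04). Of 8 markers of endothelial cells, which express Mfsd2a in brain, 0 were called between HFD and BD by edgeR, DESeq2 or limma-voom (0 at an unadjusted p below 0.05), and 3 were higher on MCD than on BD. Their summed level was 279.6 to 354 CPM on BD, 272 to 322 on HFD and 335 to 363 on MCD. In bulk tissue a change in the number of cells of a type and a change in RNA per cell cannot be told apart, here and in all later results.

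Choline kinase catalyses the first step of the CDP-choline route and has a pair of genes. Chka (chr19:3851773-3894369, plus strand) was at 115, 108, 107, 134 and 119.6 CPM on BD, at 67.7, 29.7, 69.9, 37.3 and 30.7 CPM on HFD, and at 43.9, 67.7, 52.3, 29.3 and 35.4 CPM on MCD. All 10 libraries on the 31% fat diets were below all 5 on BD. Within HFD the libraries fell into a pair at 67.7 and 69.9 CPM (replicates 1 and 3) and 3 between 29.7 and 37.3, while the MCD libraries were spread over the same range. Means were 117 ± 10.9 CPM on BD, 47.1 ± 20.05 on HFD and 45.7 ± 15.04 on MCD (SD, n = 5). Against BD the log2 fold change was -1.32 ± 0.26 (SE) for HFD (0.399 of the BD level, adjusted p = 0.00589) and -1.36 ± 0.26 for MCD (0.391 of the BD level, adjusted p = 0.00174). Between MCD and HFD it was -0.03 (95% interval -0.59 to 0.52, adjusted p = 0.965). With HFD replicate 2 and MCD replicate 3 left out the values against BD were -1.19 (adjusted p = 0.0192) and -1.41 (adjusted p = 0.00185).

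The other choline kinase gene, Chkb (chr15:89426360-89429908, minus strand), encodes the isoform that muscle depends on. Its level was 4.26 to 6.12 CPM on BD, 4.01 to 6.14 on HFD and 4.81 to 7.11 on MCD, and the diets overlapped. For Chkb the log2 fold change was -0.05 for HFD against BD (95% interval -0.40 to 0.30), 0.19 for MCD against BD (-0.15 to 0.53) and 0.25 for MCD against HFD (-0.09 to 0.58). Adjusted p-values were 0.915, 0.430 and 0.415. Per kilobase of transcript, the ratio of Chka to Chkb in a library was 16.2 ± 3.53 on BD, 6.56 ± 2.81 on HFD and 5.36 ± 1.89 on MCD (SD, n = 5), with 11.7 as the lowest BD value and 9.42 and 7.40 as the highest on HFD and MCD. By these counts Chka thus stayed above Chkb per length in every library, by at least 3.25-fold. Another protein-coding gene on the same strand overlaps most of the Chkb locus. The counting mode is not known, so reads shared with that gene may be missing from the Chkb counts. The low level of Chkb and the size of these ratios are therefore uncertain.

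Pcyt1a (chr16:32430921-32475070, plus strand) encodes the CTP:phosphocholine cytidyltransferase that sets the pace of the CDP-choline route. Of the 10 genes it had the narrowest 95% intervals. It lay between 116 and 131 CPM on BD, 114 and 129.9 on HFD, and 113 and 136 on MCD, and the mean ± SD was 123 ± 5.79, 119 ± 6.49 and 122 ± 10.5 CPM (n = 5). Its log2 fold changes were -0.05 for HFD against BD, -0.01 for MCD against BD and 0.04 for MCD against HFD. The 95% intervals all lay within -0.21 to 0.20, and the adjusted p-values were 0.808, 0.957 and 0.829. Chka mRNA per kilobase was 1.79 ± 0.142 times that of Pcyt1a on BD, 0.749 ± 0.331 times on HFD and 0.715 ± 0.271 times on MCD (SD, n = 5). The order of the kinase and the cytidyltransferase was therefore turned in 3 of 5 HFD libraries and 4 of 5 MCD libraries, and in none on BD.

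Chpt1 (chr10:88452745-88504073, minus strand), a cholinephosphotransferase of the last step, was at 244, 213, 228, 206 and 243 CPM on BD, 180.1 to 282 on HFD and 205 to 307 on MCD. The diets overlapped, with a log2 fold change of -0.06 for HFD against BD (95% interval -0.32 to 0.21), 0.14 for MCD against BD (-0.13 to 0.40) and 0.19 for MCD against HFD (-0.07 to 0.46). Adjusted p-values were 0.861, 0.488 and 0.409. Of these 4 genes of the CDP-choline route Chka was called, and Chkb, Pcyt1a and Chpt1 were not.

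Pcyt2 (chr11:120610087-120617936, minus strand) is the matching cytidyltransferase of the CDP-ethanolamine route, which makes the phosphatidylethanolamine that Pemt uses. Its levels were 503, 579, 592, 616 and 411 CPM on BD, 617, 481, 476, 461 and 507 on HFD, and 439.6, 417, 519, 408 and 452 on MCD. BD replicate 5 was as low as the MCD libraries, and the diets overlapped. Means were 540.0 ± 83.7, 508 ± 62.9 and 447 ± 43.6 CPM (SD, n = 5). For MCD against BD the log2 fold change was -0.27 (95% interval -0.51 to -0.03), with an unadjusted p of 0.0288 in edgeR and an adjusted p of 0.102. Without BD replicate 5 it was -0.36 with an adjusted p of 0.0194. With all libraries and a covariate for non-unique alignments it was -0.38 with an adjusted p of 0.0397. Whether Pcyt2 is called thus turns on 1 library and on the model. The log2 fold change of HFD against BD was -0.09 (adjusted p = 0.740) and that of MCD against HFD was -0.19 (adjusted p = 0.381).

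Pemt (chr11:59970614-60046489, minus strand) encodes the methyltransferase of the liver's own route. It was at 282, 278, 293, 345 and 236 CPM on BD, at 267, 251, 245, 277 and 293 on HFD, and at 258, 294, 263, 248.2 and 248.5 on MCD. The diets overlapped, and means were 287 ± 39.2, 267 ± 19.7 and 262 ± 18.8 CPM (SD, n = 5). Log2 fold changes were -0.10 for HFD against BD (95% interval -0.31 to 0.10), -0.13 for MCD against BD (-0.33 to 0.07) and -0.02 for MCD against HFD (-0.23 to 0.18). Adjusted p-values were 0.616, 0.377 and 0.922. So no difference in Pemt mRNA between MCD and HFD was detectable with these libraries, and the interval holds no change beyond about 0.2 in either direction.

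Lpcat3 (chr6:124663027-124704418, plus strand) reloads lysophosphatidylcholine with polyunsaturated fatty acids and is a known target of the sterol sensor LXR. It was at 160.1, 128.1, 166, 171 and 119 CPM on BD, at 162 to 185 on HFD and at 164 to 184 on MCD. BD replicates 2 and 5 were below every other library, and BD replicate 1 was slightly below every HFD and MCD library. BD replicates 3 and 4 lay inside the range of the other diets. Means were 149 ± 23.6 CPM on BD, 174 ± 9.21 on HFD and 175 ± 9.36 on MCD (SD, n = 5). The log2 fold change was 0.22 for HFD against BD (95% interval 0.02 to 0.43, unadjusted p = 0.0352, adjusted p = 0.203 in edgeR) and 0.24 for MCD against BD (0.03 to 0.45, unadjusted p = 0.0260, adjusted p = 0.0948). Neither was called. Between MCD and HFD it was 0.01 (-0.19 to 0.22, adjusted p = 0.961).

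**Figure D2:**
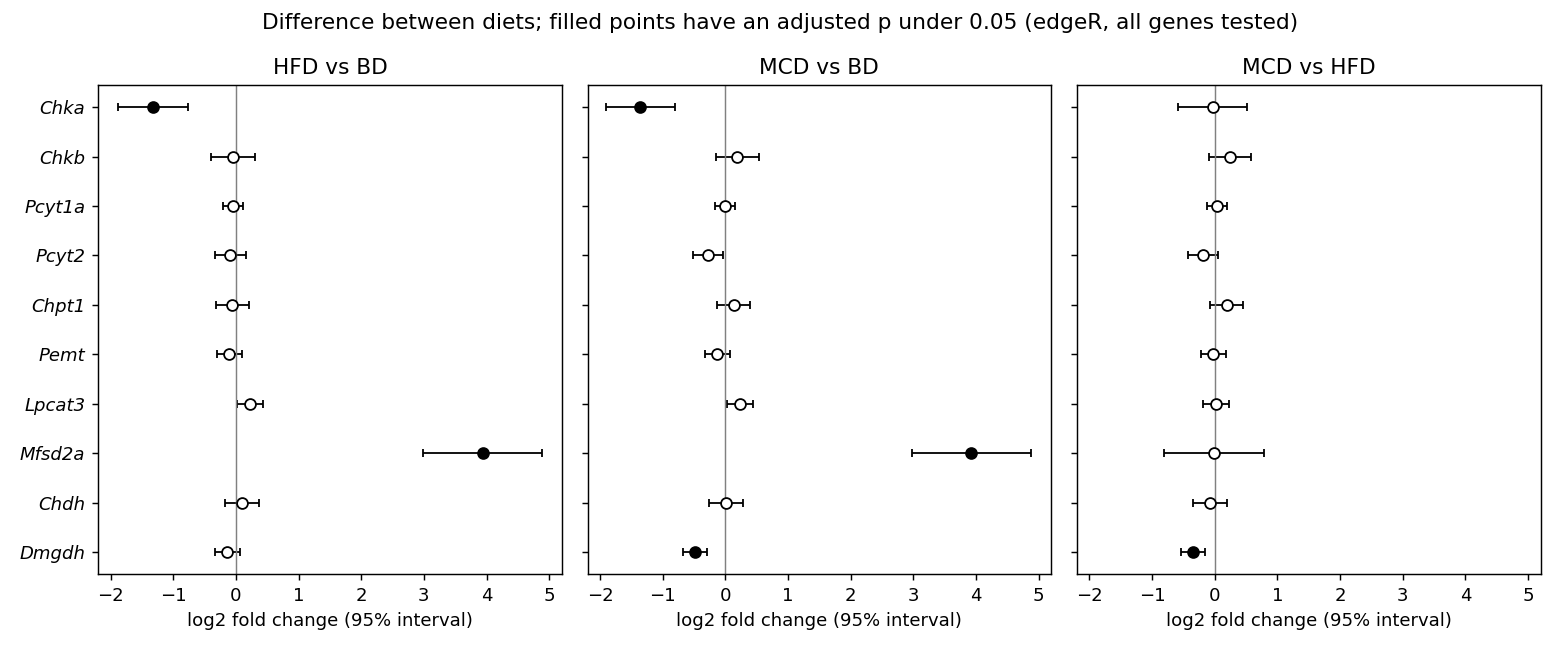
Log2 fold change of each of the 10 genes (horizontal axis) in the 3 comparisons, with 95% intervals from edgeR's test; filled points have an adjusted p under 0.05. Mfsd2a lies at 3.94 and 3.93 and Chka at -1.32 and -1.36 against BD, and Dmgdh is the gene that is filled for MCD against HFD, at -0.35.

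Oxidation of choline starts with Chdh (chr14:30009023-30040527, plus strand), the choline dehydrogenase of mitochondria. It was at 228 to 307 CPM on BD, 275 to 307 on HFD and 181 to 322 on MCD, where replicate 2 (181) was below all other 14 libraries. The log2 fold change was 0.10 for HFD against BD (95% interval -0.18 to 0.37), 0.01 for MCD against BD (-0.26 to 0.28) and -0.08 for MCD against HFD (-0.35 to 0.19). Adjusted p-values were 0.750, 0.958 and 0.771.

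Dmgdh (chr13:93674433-93752833, plus strand) acts further along, where it turns dimethylglycine into sarcosine and passes a one-carbon unit to folate. Its levels were 835, 710.1, 821, 764 and 773 CPM on BD. On HFD they were 699.7, 587, 739.8, 813 and 713 CPM. On MCD they were 506, 615, 586, 549 and 531 CPM. All MCD libraries were below all BD libraries, and HFD overlapped BD on one side and, through replicate 2 alone, MCD on the other. Means were 780.4 ± 49.7, 711 ± 81.7 and 557 ± 43.3 CPM (SD, n = 5).

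For MCD against BD the log2 fold change of Dmgdh was -0.49 ± 0.09 (SE), or 0.714 of the BD level (adjusted p = 0.00111), and the call was kept in 26 of 26 other settings. For MCD against HFD it was -0.35 ± 0.09, or 0.785 of the HFD level, with an adjusted p of 0.0466, close to the threshold. This call was kept in 9 of the 26 settings and lost in 17, where the adjusted p reached 0.204, although the log2 fold change stayed between -0.42 and -0.24. It was lost when BD replicate 1, 2, 3 or 4, HFD replicate 1, 3, 4 or 5, or MCD replicate 1, 4 or 5 was left out, with adjusted p-values of 0.0522 to 0.156. Without HFD replicate 2 the adjusted p was 0.00786, and without that library and MCD replicate 3 together the log2 fold change was -0.42 (adjusted p = 0.00839). For HFD against BD it was -0.14 (95% interval -0.33 to 0.06, adjusted p = 0.471). Per kilobase, the ratio of Dmgdh to Chdh was 5.48 ± 0.621 on BD, 4.64 ± 0.598 on HFD and 4.06 ± 1.36 on MCD (SD, n = 5). The HFD libraries overlapped both other diets. MCD, with a median of 3.62 and a highest ratio of 6.46, overlapped BD, with a lowest ratio of 4.90, through replicate 2 alone. That MCD library had the lowest Chdh level.

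Markers of other cell types moved with the MCD diet beside the lower Dmgdh. Of 10 macrophage markers 10 were higher on MCD than on BD and 2 were higher than on HFD, and their summed level was 262 to 467 CPM on BD, 406 to 607 on HFD and 588 to 745 on MCD. Of 10 markers of stellate cells and fibroblasts 9 were higher on MCD than on BD and 5 higher than on HFD, with summed levels of 319 to 417, 401 to 569 and 571 to 984 CPM. Of 10 hepatocyte markers 3 were lower on MCD than on BD and 1 lower than on HFD, and none was higher. The part of these shifts in the level of Dmgdh was not tested. Of 8 markers of the periportal zone 4 were lower and 1 was higher on MCD than on BD, while for MCD against HFD edgeR, DESeq2 and limma-voom called 0, with 1 higher and 2 lower at unadjusted p-values below 0.05. Of 8 markers of the pericentral zone 2 were higher and 2 lower on MCD than on BD in edgeR. For MCD against HFD the same 3 tools called 0 of them, with 1 higher at an unadjusted p below 0.05.

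Levels of different genes were compared per kilobase of each gene's principal transcript (RPKM, means over 5 libraries). On BD the highest were Pcyt2 at 287, Pemt at 286 and Dmgdh at 261, whose libraries overlapped each other. After a gap came Lpcat3 at 65.3, Chpt1 at 58.1, Chdh at 48.1 and Chka at 45.8, each overlapping the next. Pcyt1a at 25.7 stood apart from its neighbours, and Mfsd2a at 3.94 and Chkb at 2.90 overlapped at the bottom. The place of Chkb in this order is uncertain because of the gene that overlaps it. On HFD Mfsd2a stood at 61.3, between Lpcat3 at 76.2 and Chpt1 at 55.8, and on MCD at 61.2, between Chpt1 at 63.8 and Chdh at 48.5. Chka stood at 18.5 on HFD and 17.9 on MCD, below Pcyt1a at 24.8 and 25.5, with overlapping libraries. Dmgdh at 186 on MCD no longer overlapped Pcyt2 at 238, the gene above it.

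**Figure D3:**
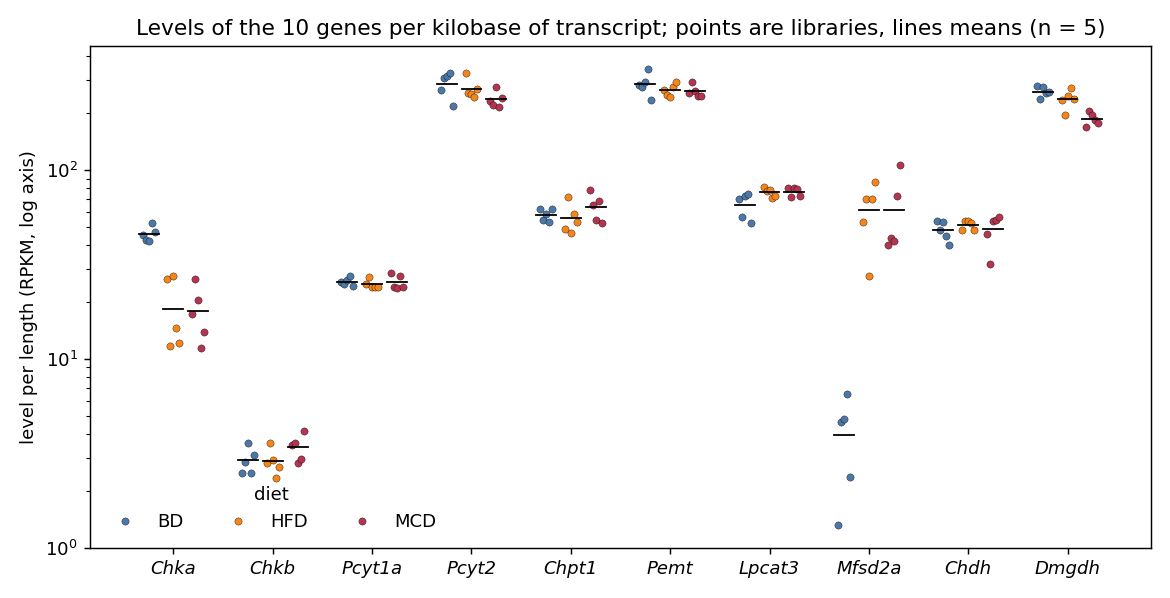
Level of the 10 genes per kilobase of principal transcript (RPKM, log axis), with 1 point per library and a line at the mean of 5 libraries per diet. Mfsd2a moves from the bottom of the order on BD (3.94) to its middle on HFD (61.3) and MCD (61.2), and Chka moves from 45.8 to 18.5 and 17.9.

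The 3 genes most like each changed gene were taken from 9045 genes with a mean of at least 5 CPM, by Pearson's r of log2 CPM over the 15 libraries. These correlations describe a pattern over libraries that differ in diet, and all genes of a library share its depth and scaling. The genes closest to Chka were Arntl, which encodes the clock activator BMAL1 (r = 0.97, and 0.91 on deviations from the diet means), Nfil3, a clock-controlled repressor (0.94 and 0.77), and Clpx, part of a mitochondrial protease (0.94 and 0.80). Those closest to Mfsd2a were Dbp, a clock-output activator (0.96 and 0.62), Per3, a period gene (0.95 and 0.50), and Slc2a5, a fructose carrier (0.93 and 0.52). Those closest to Dmgdh were Slc6a12, a carrier of betaine and GABA (0.96 and 0.86), Sdr42e1 (0.95 and 0.87), and Serpina1d, a protease inhibitor from a family of near-identical genes whose counts are uncertain (0.95 and 0.89). Between Chka and Mfsd2a themselves r was -0.90 over the 15 libraries and -0.52 on deviations from the diet means.

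**Figure D4:**
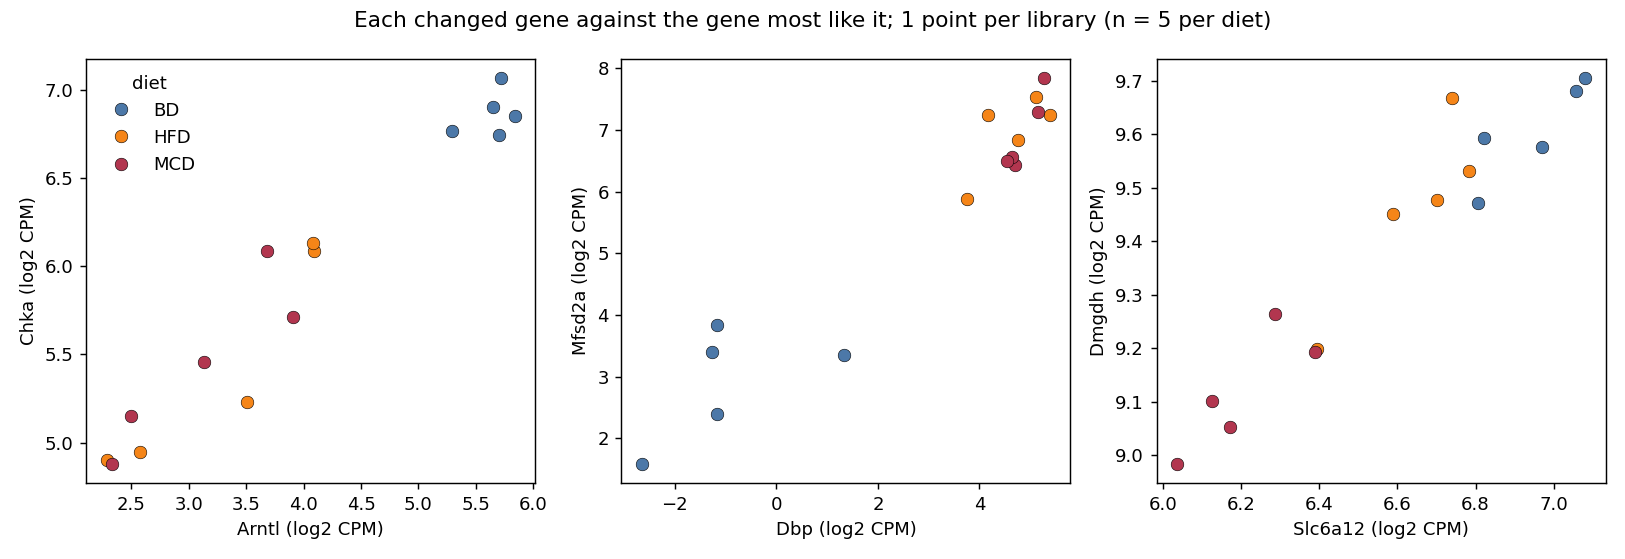
Log2 CPM of Chka, Mfsd2a and Dmgdh (vertical axes) against that of the gene most like each (horizontal axes), with 1 point per library coloured by diet, n = 5 per diet. The HFD and MCD points mix along the line for Chka (r = 0.97) and lie together above BD for Mfsd2a (r = 0.96), while for Dmgdh (r = 0.96) the MCD points lie at the lower end with 1 HFD library among them.

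Clock genes differed between BD and both other diets beside Chka and Mfsd2a. Of 18 clock genes tested, 10 were higher and 4 lower on HFD than on BD, 9 were higher and 6 lower on MCD than on BD, and 0 were called for MCD against HFD in edgeR, where 2 were lower at an unadjusted p under 0.05, DESeq2 called 1 lower and limma-voom called 0. Arntl was at 50.1 ± 6.72 CPM on BD, 11.1 ± 5.81 on HFD and 9.29 ± 4.37 on MCD (SD, n = 5), log2 fold changes of -2.19 (adjusted p = 0.00166) and -2.42 (adjusted p = 2.94e-04). Dbp was at 0.640 ± 0.976 CPM on BD, close to the level of 3 counts in the shallow libraries, and at 26.8 ± 11.7 on HFD and 29.6 ± 7.03 on MCD. The hour at which livers were taken is not in the labels. Genes that fasting and the fatty acid sensor PPAR alpha induce moved too: of 18 tested, 7 were higher on HFD and 7 on MCD than on BD, and none was lower. For MCD against HFD edgeR called 0 of them, where unadjusted p-values under 0.05 numbered 1 for higher and 1 for lower, and DESeq2 and limma-voom called 0. The part of clock phase or feeding state in the levels of Chka and Mfsd2a was not tested.

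The wider pathway was read from 62 other genes, of which 54 had enough counts to be tested. On HFD against BD 4 were higher and 8 lower, on MCD against BD 11 were higher and 14 lower, and on MCD against HFD 2 were higher and 4 lower. Of all genes tested, 6.92%, 21.4% and 3.15% were called in the same comparisons. The list was chosen with earlier results of these data known, so its counts beside these shares are no independent test of the pathway. The median log2 fold change of the 54 genes was -0.02, -0.02 and -0.03. Without HFD replicate 2 and MCD replicate 3, 11, 24 and 10 of the 54 were called.

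The genes next to Chdh and Dmgdh on the path of choline oxidation and methyl use were the group with the most calls in 1 direction. Of its 7 genes (Aldh7a1, Bhmt, Bhmt2, Sardh, Gnmt, Mat1a and Ahcy), 5 were lower on HFD than on BD, 7 were lower on MCD than on BD, and none was higher. Between HFD and BD 4 of 8 periportal markers and 2 of 10 hepatocyte markers were lower too and none was higher, among them Cps1 at 0.442 of its BD level. Of 8 pericentral markers 3 were higher and 1 was lower on HFD than on BD. The summed level of the periportal markers was 4547 to 6582 CPM on BD, 3278 to 5421 on HFD and 2486 to 5865 on MCD. Pck1 alone had medians of 2307, 2346 and 2422 CPM in this sum. Hal, Gls2 and Arg1 were lower in every HFD and MCD library than in any BD library. On MCD 4 of the 8 periportal markers were lower and 1 was higher than on BD. The part of the periportal markers in the fall of the methyl-use genes was not tested. The calls of Sardh on HFD and of Mat1a on MCD were near the threshold and were kept in 10 and 11 of 26 other settings, and without HFD replicate 2 and MCD replicate 3 the counts were 4 and 6. Gnmt, which uses up S-adenosylmethionine to methylate glycine, was at 1777 ± 502 CPM on BD, 862 ± 80.3 on HFD and 586 ± 164 on MCD (SD, n = 5), log2 fold changes of -1.04 ± 0.20 (adjusted p = 0.00337) and -1.60 ± 0.20 (adjusted p = 5.67e-05). Aldh7a1, which oxidises betaine aldehyde to betaine between Chdh and Dmgdh, fell by 0.58 ± 0.08 (adjusted p = 1.33e-04) and by 0.72 ± 0.08 (adjusted p = 9.77e-06) on the log2 scale. Bhmt and Bhmt2, the betaine-dependent methyltransferases, are close copies, and reads can be split or lost between them, so their values are uncertain. None of the 7 was called between MCD and HFD in edgeR, where 2 were lower at an unadjusted p under 0.05. There DESeq2 called 1 lower and limma-voom 0. Chdh, the first enzyme, was thus not shown to change while Aldh7a1 after it fell on both diets and Dmgdh fell on MCD.

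Around the CDP-choline and CDP-ethanolamine routes, 8 genes were tested beside the members, of which 1 was higher and 2 lower on HFD, and 2 were higher and 3 lower on MCD, than on BD. Agxt2l1 (now Etnppl), which breaks down phosphoethanolamine, was at 254 ± 26.7 CPM on BD, 83.8 ± 17.8 on HFD and 116 ± 22.6 on MCD (SD, n = 5). Its log2 fold changes were -1.60 ± 0.15 (adjusted p = 1.51e-06) and -1.12 ± 0.14 (adjusted p = 4.32e-05), and every library of both diets was below BD. Ctps2, a CTP synthase, rose on MCD from 9.50 ± 2.35 to 19.3 ± 3.59 CPM (log2 fold change 0.99 ± 0.17, adjusted p = 3.60e-04, and 0.0654 with thinned counts). Etnk1, an ethanolamine kinase, was at 130.4 ± 3.76 CPM on BD, 130.1 ± 7.20 on HFD and 107 ± 8.47 on MCD, and MCD against HFD had an adjusted p of 0.0485, a call kept in 8 of 26 other settings. Of the 3 genes of the phosphatidylserine route 0 were called in the 3 comparisons by edgeR, DESeq2 or limma-voom, and 0 had an unadjusted p below 0.05.

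Of 7 choline carriers tested, Slc44a1, a choline carrier of the plasma membrane and mitochondria, was at 33.8 ± 5.73 CPM on BD, 22.2 ± 2.21 on HFD and 18.7 ± 2.68 on MCD (SD, n = 5). It fell by 0.60 ± 0.13 (adjusted p = 0.00665) and by 0.83 ± 0.13 (adjusted p = 1.74e-04) on the log2 scale, and no library of either diet reached BD. With counts thinned to the shallowest library the HFD call was lost (adjusted p = 0.249). Mfsd7c (now Flvcr2), a choline carrier of the same large superfamily as Mfsd2a, was at 3.18 ± 0.859 CPM on HFD and 5.72 ± 1.75 on MCD, a log2 fold change of 0.85 ± 0.22 (adjusted p = 0.0443) with overlapping libraries, and the call was kept in 13 of 25 settings. Slc5a7, the high-affinity choline carrier of neurons, had 0 counts in all libraries.

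Export and remodelling genes lay on both sides. Abcb4, which flips phosphatidylcholine into bile, was at 283 ± 41.6 CPM on BD, 420.5 ± 42.1 on HFD and 436.5 ± 72.0 on MCD (SD, n = 5), log2 fold changes of 0.57 ± 0.12 (adjusted p = 0.00787) and 0.62 ± 0.12 (adjusted p = 0.00149), with every library above BD. Lpgat1, a lysophospholipid acyltransferase, was at 194 ± 14.0, 256 ± 11.5 and 186 ± 14.1 CPM. It was higher on HFD than on BD by 0.40 ± 0.08 (adjusted p = 0.00403) and lower on MCD than on HFD by a log2 fold change of -0.46 ± 0.08 (adjusted p = 0.00739), and the latter call was kept in 26 of 26 settings. Mttp, which loads lipid onto apolipoprotein B, was at 548 ± 62.9 CPM on HFD and 402 ± 27.5 on MCD (log2 fold change -0.45 ± 0.09, adjusted p = 0.0160), a call kept in 23 of 26 settings and lost without HFD replicate 4 (adjusted p = 0.0586). Agpat2, an acyltransferase that makes phosphatidic acid, was lower on MCD than on HFD by a log2 fold change of -0.42 ± 0.11 (adjusted p = 0.0462, kept in 10 of 26 settings). Lpcat2, the acyltransferase of inflammatory cells that also makes platelet-activating factor, rose on MCD from 2.15 ± 0.758 to 5.36 ± 1.20 CPM (log2 fold change 1.24 ± 0.25, adjusted p = 0.00167, and 0.196 with thinned counts). Pla2g7, the secreted hydrolase that macrophages make, was at 3.07 ± 1.12 CPM on HFD and 6.54 ± 1.36 on MCD (1.02 ± 0.27, adjusted p = 0.0443, kept in 13 of 25 settings), beside the higher macrophage markers given above. Pnpla7, a lysophospholipase that frees glycerophosphocholine, was higher on HFD than on BD by 0.46 ± 0.13 (adjusted p = 0.0374, kept in 15 of 26 settings).

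**Figure D5:**
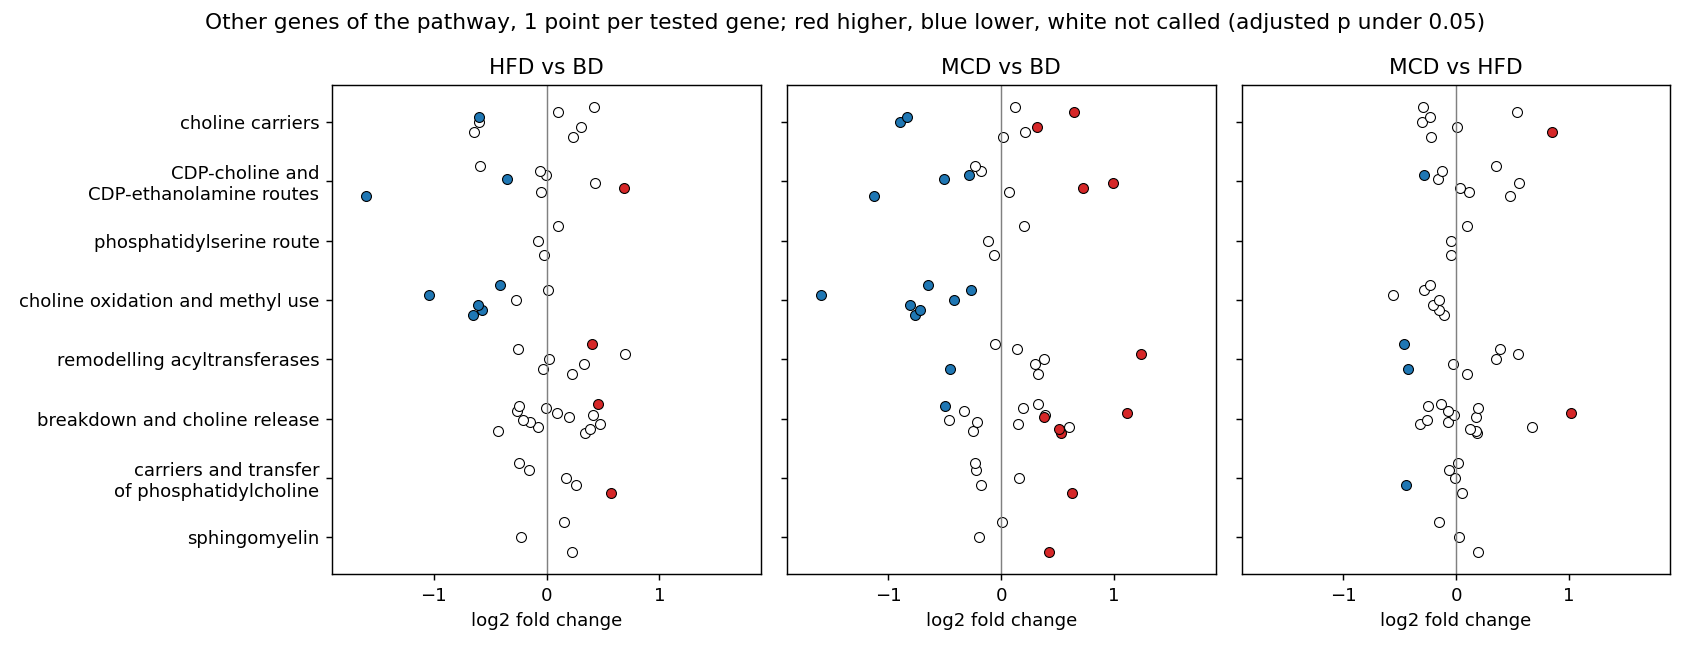
Log2 fold change (horizontal axis) of the 54 other pathway genes tested, 1 point per gene, by role (rows) and comparison (panels); red points were called higher, blue lower and white not called in edgeR. The 7 genes of choline oxidation and methyl use all lie left of 0 on MCD against BD and all are called there, and 6 genes of all roles are called for MCD against HFD.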

How the data were processed

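RNA-seq counts of 15 liver libraries were used. Per the submitters' processing notes, the authors used Trimmomatic, TopHat2 (2.0.13), HTSeq and DESeq2 with GRCm38/mm10. The deposited values are whole-number counts per gene symbol (23420 genes). The gene models, the strand option and the HTSeq mode were not given in the sources used here, so overlapping and antisense genes (beside Chka, Chkb, Chpt1, Dmgdh and Lpcat3, for example) are uncertain. The 5 closing rows for unassigned reads stayed out: reads outside genes were 12.7% to 17.0% and ambiguous reads 0.567% to 0.841% of uniquely placed reads.

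Tests used edgeR 4.0.16 under R 4.3.3 (TMM, filterByExpr with minimum count 10 and minimum total 15, 1 robust quasi-likelihood fit over the 15 libraries, two-sided F tests, Benjamini-Hochberg over 12193 genes), checked on simulated counts. The SE is the log2 fold change over the root of F, and the common biological coefficient of variation was 0.176. CPM uses TMM-scaled library sizes, but the CPM of 3 counts uses unscaled ones. Correlations used log2 CPM with a prior count of 2. Positions and transcript lengths are from GENCODE vM21.

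Members and gene lists were chosen with earlier results of these data known. Named are all members, pathway genes called for MCD against HFD, the 3 with the smallest p per direction in the other comparisons, and the 3 genes most like each changed member. Slc44a1, Sardh, Mat1a, Slc5a7, Cps1, Pck1, Hal, Gls2, Arg1 and the genes under other observations were named after their values were seen. Alternatives were DESeq2 1.42.0, limma-voom (limma 3.58.1), other scalings, filters and fits, thinning, a stricter threshold and leaving out each library. A fit without HFD replicate 2 and MCD replicate 3 and a covariate for non-unique alignments (1.15 to 2.80 per gene count) were added after seeing the data.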

Additional observations from a re-analysis of the deposited data

How the results depend on the processing

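Mfsd2a and Chka kept their direction and their call against BD in all 26 alternatives with the 0.05 threshold, with log2 fold changes of 3.75 to 4.16 (HFD) and 3.56 to 4.15 (MCD) for Mfsd2a and of -1.50 to -1.18 and -1.53 to -1.18 for Chka. For MCD against HFD the count of called members, 1 at first (Dmgdh), was 0 without TMM factors, without a count filter, with a filter of 5 CPM in 5 libraries, with only the 2 diets compared, with counts thinned to the shallowest library, with the covariate for non-unique alignments and at an adjusted p under 0.01, and it ran from 0 to 1 when a library was left out. The count of called pathway genes for MCD against HFD, 6 at first, was 10 with DESeq2 and 10 without the 2 libraries that stand apart. It was 2 with the 5 CPM filter, 1 with thinned counts, 1 with the covariate and 1 at an adjusted p under 0.01, and it ran from 1 to 9 when a library was left out. The count for MCD against BD, 25 at first, was 13 with thinned counts, and that for HFD against BD, 12 at first, was 7 at an adjusted p under 0.01. The causes were not tested, but thinning leaves fewer counts.

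Without TMM factors the median of all genes shifted by 0.14 for MCD against BD, and the pathway genes split into 6 higher and 6 lower for HFD against BD, 13 and 10 for MCD against BD, and 5 and 2 for MCD against HFD, in place of 4 and 8, 11 and 14, and 2 and 4. Lpcat3 was then called for MCD against BD (0.38, adjusted p = 0.0106), as it was with the 5 CPM filter (0.29, adjusted p = 0.04998), and Pcyt2 was called with the covariate (-0.38, adjusted p = 0.0397) and without BD replicate 5. No member changed direction in a fit that called it. No paired analysis was possible because the replicate numbers follow the order of deposit. Depth limits Chkb and Mfsd2a on BD most.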

Other observations

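Of the pathway genes with too few counts to be tested, Pcyt1b, the second cytidyltransferase gene, had 20, 15 and 52 counts in all libraries of BD, HFD and MCD, against 432 to 3455 counts per library for Pcyt1a, so nearly all counts of this enzyme's genes came from Pcyt1a. Mboat1 had 32, 46 and 71 counts, Gdpd3 had 20, 23 and 39, Slc44a4 had 5, 16 and 32, Mboat2 had 0, 2 and 7, and Slc22a2 had 1, 3 and 3.

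Within a library and per kilobase, Pcyt1a to Pemt was 0.0907 ± 0.00836 on BD, 0.0939 ± 0.0101 on HFD and 0.0981 ± 0.0126 on MCD (SD, n = 5). Pcyt2 to Pcyt1a was 11.1 ± 1.41, 10.9 ± 1.39 and 9.40 ± 1.497, and Chpt1 to Pcyt1a was 2.27 ± 0.244, 2.24 ± 0.317 and 2.49 ± 0.262. For each of these ratios the libraries of the 3 diets overlapped.

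Among the members that did not change, the genes most like Chdh over the 15 libraries were Atxn2 (r = 0.95), Igf2r (0.95) and Dennd1a (0.94), and these values were about the same on deviations from the diet means (0.95, 0.96 and 0.94). Pcyt2 was most like Tst (0.93), Ndufa11 (0.93) and Ring1 (0.92). All of these genes share each library's depth and scaling.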
